A study of Mus musculus with 6 samples.

Results

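Mx1, Mx2, Rsad2 (viperin), Cmpk2, Bst2 (tetherin), Isg20, Ifi44, Ifi27l2a, Ifi35 and Rtp4 are 10 of the 52550 genes counted by RNA-seq in mouse macrophages with and without the scavenger receptor MSR1. They were taken from the table by symbol, as known interferon-induced antiviral genes that stood higher in the MSR1 KO libraries of this same table. Their difference between genotypes is therefore a description and carries no test. Macrophages were grown from C57BL/6 bone marrow over 7 days in 25 ng/ml M-CSF, then cultured for 48 h with bone marrow mesenchymal stromal cells (BMSCs) across a transwell membrane. The 3 MSR1 KO and 3 MSR1 WT libraries differed in the donor mouse genotype and shared the strain, growth factor, co-culture and time. No library of macrophages alone and none with added interferon or virus was analysed here. The paper calls the 3 libraries of each genotype biological replicates. The labels name no mouse, so whether each library came from its own mouse is not known from them. The p-values measure the spread between these samples, which may include technical spread.

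Interferons bind receptors that act through Janus kinases and transcription factors such as IRF9. Type I interferon signals reach their target genes through a promoter motif called the interferon-stimulated response element (ISRE), and interferon gamma signals through a second motif called the gamma-activated site (GAS). The induced proteins block viruses at successive steps, among them genome transcription, nucleotide supply, RNA stability and budding from the membrane. Macrophages sense nucleic acids, make type I interferon and express many of these genes at a basal level.

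The knockout was checked first, and Msr1 was lower in every KO library. Its counts were 2118, 1825 and 2000 in MSR1 KO against 7543, 9163 and 9219 in MSR1 WT replicates 1, 2 and 3. The log2 fold change was -2.02 ± 0.14 (SE; adjusted p = 0.00124, edgeR's quasi-likelihood test). Libraries held 36143518 to 47417448 counts, and the 10 genes had between 217 and 18495 counts per library. The SD of log2 CPM of the 10 genes ran from 0.27 to 0.64 in MSR1 WT and from 0.04 to 0.27 in MSR1 KO. The part of counting error in these spreads was not tested, and it weighs most where the KO spread was narrow. Summed macrophage markers stood at 28410.5 to 29466 CPM in MSR1 KO and 28077 to 30777 CPM in MSR1 WT libraries. MSR1 WT replicate 3 stood apart from the other two MSR1 WT libraries for interferon-response genes, and the fold changes of the 10 genes and the counts of called genes in the pathway lists and among the neighbours are also given without it.

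Promoter sequence was matched for 6 of the 10 genes, in 8 windows that run from 250 bases before to 50 bases after a RefSeq start (mouse build GRCm38.p6). Mx1, Mx2, Ifi27l2a and Rtp4 had no entry. Stretches of the 3 windows that held an exact motif before the start are shown. ISRE and GAS are the motifs given above for interferon signals, and their use in these genes was not tested. Capitals mark the matched letters and each sequence is written 5′ to 3′ on the strand of its gene.
Bst2, chr8:71537557-71537638, minus strand: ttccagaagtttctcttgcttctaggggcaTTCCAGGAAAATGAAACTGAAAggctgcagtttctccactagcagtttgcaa
Rsad2, chr12:26456533-26456602, minus strand: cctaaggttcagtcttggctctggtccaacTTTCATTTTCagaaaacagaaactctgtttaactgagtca
Isg20, chr7:78913321-78913389, plus strand: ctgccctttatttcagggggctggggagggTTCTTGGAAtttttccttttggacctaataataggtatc

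The ISRE core was searched as GAAANNGAAA and the GAS as TTCNNNGAA, on both strands. In the Bst2 window, 2 ISRE cores lay from 130 to 121 and from 124 to 115 bases before the start and overlapped each other, and a GAS from 136 to 128 bases before the start overlapped the first of them. The Rsad2 window held 1 ISRE core on the opposite strand, from 120 to 111 bases before the start. In Isg20 a GAS lay from 73 to 65 bases before the start of the first of its 3 windows, and in Ifi35 another lay just after the start. Exact ISRE cores were thus in 2 of 8 windows, beside 3.44% of the 32851 promoter windows in the table, and GAS motifs in 3 of 8, beside 8.30%. Allowing 1 mismatch, a setting added after the exact matches had been seen, put an ISRE core in 7 of 8 windows and in 35.4% of all windows. The Cmpk2 window was the exception. These matches describe the letters in the windows and say nothing of binding.

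All 10 genes were higher in MSR1 KO macrophages, by 1.67-fold to 3.49-fold, and for each of them every MSR1 KO library lay above every MSR1 WT library. Across all 16402 tested genes, 12.1% showed such a separation in that direction. At an adjusted p under 0.05 all 10 counted as higher, beside 2.25% of all genes (and 2.66% counted as lower). By the study's definition of a differentially expressed gene, a fold change above 1.5 with an unadjusted p under 0.05, all 10 also counted as higher, beside 3.59%. At an unadjusted p under 0.05 alone, 1419 of the 16402 tested genes were higher and 1677 lower. The 10 genes were chosen from this contrast, so nothing is read from these counts. Their median log2 fold change was 0.99, against -0.0023 over all tested genes. A higher level in bulk RNA can come from more cells of a type or from more RNA per cell, which cannot be told apart here.

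Together the 10 genes took 0.143%, 0.130% and 0.126% of all counts in MSR1 KO replicates 1, 2 and 3. In MSR1 WT replicates 1, 2 and 3 they took 0.0641%, 0.0490% and 0.0820%. The highest MSR1 WT library was replicate 3 and the groups did not overlap.

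**Figure D1:**
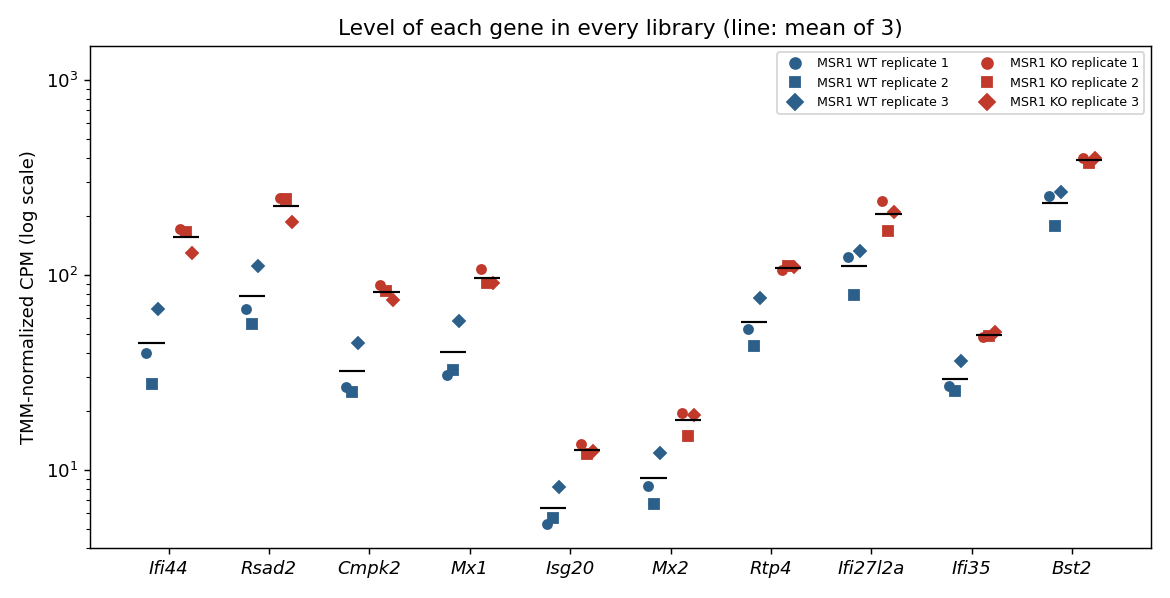
TMM-normalized CPM (log axis) of each gene in the 3 MSR1 WT (blue) and 3 MSR1 KO (red) libraries, with the mean of each genotype as a line and genes ordered by fold change. Every red symbol lies above every blue symbol of the same gene, and the highest blue symbol is MSR1 WT replicate 3 for all 10 genes.

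Mx1 and Mx2 encode dynamin-like GTPases that interfere with viral transcription and with the transport of viral genomes, and most inbred laboratory strains carry defective alleles of Mx1. Both lie on chromosome 16 of GRCm38, Mx1 at 97447035 to 97462907 on the minus strand and Mx2 at 97535308 to 97560900 on the plus strand, 72400 bp apart. GENCODE M21 lists Mx2 as a polymorphic pseudogene. Mx1 measured 107, 91.5 and 90.9 CPM in MSR1 KO and 30.7, 32.6 and 57.9 CPM in MSR1 WT replicates 1, 2 and 3. MSR1 WT replicate 3 was well above the other two WT libraries and still below the lowest KO library, by 1.57-fold. The means were 96.5 ± 9.16 and 40.4 ± 15.2 CPM (SD, n = 3 libraries per genotype), and the log2 fold change was 1.26 ± 0.23 (SE). Mx2 measured 19.6, 15.0 and 19.3 CPM in MSR1 KO and 8.32, 6.72 and 12.3 CPM in MSR1 WT. Its gap between the genotypes was the narrowest of the 10 genes, with the lowest KO library 1.22-fold above the highest WT library. The Mx2 log2 fold change was 0.98 ± 0.22. Of the 50-base stretches of Mx1 transcripts 4.37% also occur in Mx2 or in the predicted genes Gm30373 and Gm43684, and 4.38% of those of Mx2 occur in Mx1, so reads from these stretches cannot be assigned with certainty.

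Rsad2 and Cmpk2 work together: Cmpk2 is a mitochondrial kinase that makes CTP from CDP, and viperin is a radical SAM enzyme that turns CTP into a chain terminator of viral RNA synthesis. The genes stand back to back on chromosome 12, Rsad2 at 26442746 to 26456452 on the minus strand and Cmpk2 at 26469204 to 26479837 on the plus strand, with 12751 bp between them. Rsad2 measured 248, 245 and 188 CPM in MSR1 KO and 67.4, 56.0 and 111 CPM in MSR1 WT replicates 1, 2 and 3. Within MSR1 KO replicate 3 was the low library, and within MSR1 WT replicate 3 was the high one, with no overlap. The log2 fold change of Rsad2 was 1.54 ± 0.24 (SE), or 2.90-fold. Cmpk2 measured 89.3, 82.8 and 74.9 CPM in MSR1 KO and 26.7, 25.2 and 44.8 CPM in MSR1 WT. The same libraries were highest and lowest in each genotype as for Rsad2, and the log2 fold change was 1.35 ± 0.21, or 2.55-fold. Per exon length, Rsad2 stood 2.64 ± 0.21 times above Cmpk2 in MSR1 KO and 2.31 ± 0.16 times in MSR1 WT libraries (SD, n = 3 each). The range of this ratio was 2.42 to 2.84 in KO and 2.13 to 2.43 in WT, so the ranges overlapped.

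Tetherin, the product of Bst2, anchors budding enveloped viruses to the cell surface. The gene lies on chromosome 8 (71534255 to 71537456, minus strand), 31891581 bp from Msr1. Bst2 measured 399, 375 and 398 CPM in MSR1 KO and 256, 179.7 and 266 CPM in MSR1 WT replicates 1, 2 and 3. The 3 KO libraries were close to each other, whereas MSR1 WT replicate 2 was well below the other two WT libraries. Means of 390.3 ± 13.7 and 234 ± 47.0 CPM gave a log2 fold change of 0.74 ± 0.14 (SE), the smallest of the 10 on the log2 scale. Bst2 is also a surface marker of plasmacytoid dendritic cells, whose 9 listed markers summed to 154 to 195 CPM in MSR1 KO and 167 to 204 CPM in MSR1 WT libraries. Most of that sum came from Tcf4 and Clec10a, which other cells express too. Siglech had 4 to 31 counts per library, and Ccr9 had 169, 143 and 142 counts in MSR1 KO and 20, 40 and 90 counts in MSR1 WT replicates 1, 2 and 3, without overlap. Ly6d and Klk1 of that list were at 0 in all 6 libraries, and none of its 5 tested genes changed by edgeR's quasi-likelihood test (Ccr9, with a log2 fold change of 1.69 and an adjusted p = 0.101, was higher at an unadjusted p under 0.05 and by DESeq2's test). The part of such cells in the difference of Bst2 was not tested.

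Isg20, an exonuclease of RNA on chromosome 7 (78913424 to 78920396, plus strand), measured 13.6, 12.0 and 12.5 CPM in MSR1 KO and 5.26, 5.71 and 8.21 CPM in MSR1 WT replicates 1, 2 and 3. The KO libraries lay close together and MSR1 WT replicate 3 was again the high WT library, with no overlap. The log2 fold change was 0.99 ± 0.18 (SE).

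Ifi44 encodes an interferon-induced protein with antiviral activity and had the largest fold change of the 10, 3.49-fold. The gene lies on chromosome 3 (151730922 to 151749960, minus strand). Its level was 173, 166 and 130.2 CPM in MSR1 KO and 39.9, 27.6 and 67.0 CPM in MSR1 WT replicates 1, 2 and 3. Both genotypes spread widely, and the lowest KO library was still 1.94-fold above the highest WT library, the widest gap of the 10. Its log2 fold change of 1.80 ± 0.29 (SE) ranked 87th of the 16402 tested genes, whereas that of Bst2 ranked 815th.

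Ifi27l2a, a small membrane protein of the Ifi27 family, lies on chromosome 12 (103442167 to 103443680, minus strand). It measured 242, 168 and 211 CPM in MSR1 KO and 124, 79.0 and 134 CPM in MSR1 WT replicates 1, 2 and 3. Replicate 2 was the low library in both genotypes, and the lowest KO value was 1.25-fold above the highest WT value. The log2 fold change was 0.88 ± 0.20 (SE). Ifi35, a leucine zipper-like protein that pairs with Nmi, lies on chromosome 11 (101448407 to 101458698, plus strand). It measured 48.3, 48.6 and 51.0 CPM in MSR1 KO and 26.9, 25.5 and 36.1 CPM in MSR1 WT. The KO libraries differed little and WT replicate 3 was the high WT library. Its log2 fold change was 0.74 ± 0.13. Antisense gene Gm11626 covers 16.8% of the Ifi35 exon bases and had 7 to 19 counts per library against 1107 to 2370 for Ifi35; without a stated strand setting their shared reads cannot be told apart.

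Rtp4 encodes a chaperone that helps receptors reach the cell surface, and lies on chromosome 16 (23520291 to 23614222, plus strand). It measured 106, 112 and 110.2 CPM in MSR1 KO and 52.7, 43.5 and 76.0 CPM in MSR1 WT replicates 1, 2 and 3. The KO libraries had the least spread of the 10 genes on the log2 scale (SD 0.04), while the WT libraries spread far more (SD 0.41). Its log2 fold change was 0.93 ± 0.18 (SE). Gm45338, on the same strand, shares 13.9% of the Rtp4 exon bases and had 10 to 45 counts per library.

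**Figure D2:**
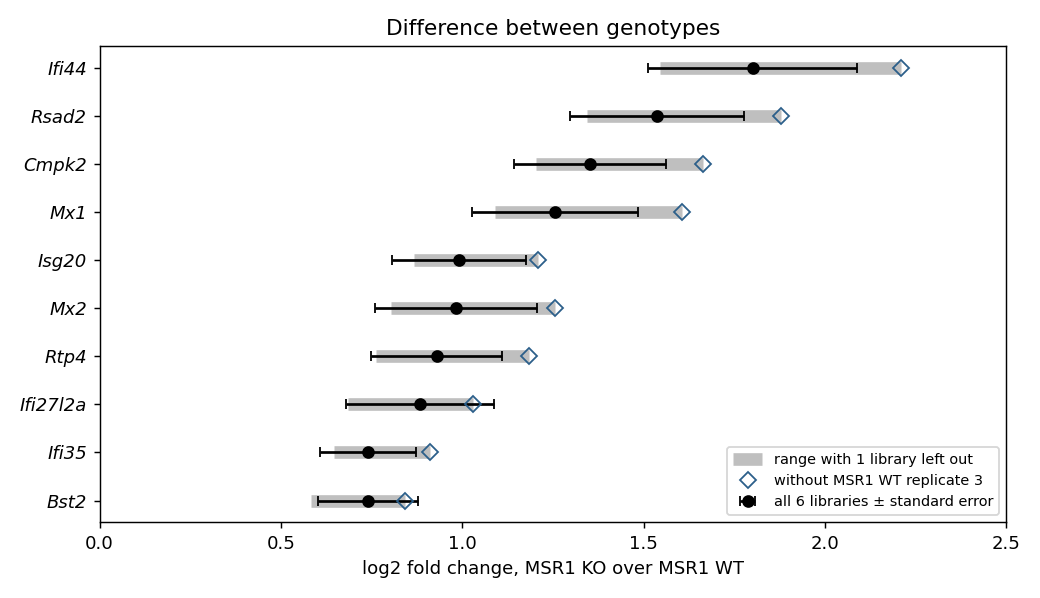
Log2 fold change of MSR1 KO over MSR1 WT for each gene (black point, bar of 1 standard error), the range when each library in turn is left out (grey), and the value without MSR1 WT replicate 3 (open diamond). All values lie above 0, from 0.58 for Bst2 to 2.21 for Ifi44, and the highest value of every gene is the one without MSR1 WT replicate 3.

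The size of the difference moved with single libraries. Without MSR1 WT replicate 3 the median log2 fold change of the 10 genes was 1.23, and Ifi44 reached 2.21, Rsad2 1.88, Cmpk2 1.66, Mx1 1.61, Mx2 1.26, Isg20 1.21, Rtp4 1.19, Ifi27l2a 1.03, Ifi35 0.91 and Bst2 0.84. With MSR1 WT replicate 2 left out the median was 0.86. At an adjusted p under 0.05, 10 of the 10 genes counted as higher without MSR1 WT replicate 3. When MSR1 WT replicate 2, MSR1 KO replicate 2 or MSR1 KO replicate 3 was left out 3 of them did, and when replicate 1 of either genotype was left out 0 did (edgeR's quasi-likelihood test). In each of these fits all 10 were higher at an unadjusted p under 0.05. Over all genes, the count of higher genes was 369 with all 6 libraries and 407 without MSR1 WT replicate 3. It was 62 without MSR1 WT replicate 2, 97 and 183 without MSR1 KO replicates 2 and 3, and 18 and 42 without replicate 1 of MSR1 WT and of MSR1 KO.

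Levels of different genes are comparable only per exon length, here scaled to the same total in each library (a TPM-like scale, called TPM here, computed from the counts and the exon lengths of GENCODE M21). In MSR1 WT macrophages the order was Bst2 (834 ± 165 TPM), Ifi27l2a (780.1 ± 202), Rtp4 (86.9 ± 26.1), Rsad2 (58.2 ± 22.2), Ifi35 (55.1 ± 11.3), Mx1 (34.5 ± 13.3), Cmpk2 (25.0 ± 8.69), Ifi44 (23.6 ± 10.8), Isg20 (11.1 ± 2.87) and Mx2 (8.13 ± 2.61; SD, n = 3). Only the steps from Ifi27l2a to Rtp4 and from Ifi44 to Isg20 separated neighbours whose libraries did not overlap. In MSR1 KO macrophages the order was Ifi27l2a (1394 ± 244 TPM), Bst2 (1350 ± 38.1), Rsad2 (164 ± 28.9), Rtp4 (160.2 ± 7.05), Ifi35 (89.1 ± 0.99), Ifi44 (79.8 ± 13.8), Mx1 (79.7 ± 8.74), Cmpk2 (61.9 ± 7.01), Isg20 (21.3 ± 1.53) and Mx2 (15.5 ± 1.97). Neighbours overlapped between Ifi27l2a and Bst2, between Rsad2 and Rtp4, between Ifi35 and Ifi44 and between Ifi44 and Mx1, and the other steps did not. Tetherin and Ifi27l2a thus stood far above the rest in both genotypes, and Mx2 lay near the middle of all tested genes, at percentile 49.5 of mean TPM, against 99.5 for Bst2.

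The libraries of 1 genotype were also set beside each other. The genes were chosen from the difference between genotypes in the same libraries, and they vary together, so the counts that follow are a description. MSR1 WT replicate 3 was the highest of the 3 WT libraries for 10 of 10 genes, whereas it was so for 35.1% of all tested genes. On the log2 scale it stood 0.31 (Bst2) to 1.01 (Ifi44) above the mean of MSR1 WT replicates 1 and 2, with a median of 0.69 against 0.01 over all tested genes. MSR1 WT replicate 2 was the lowest for 8 of the 10 and replicate 1 for Mx1 and Isg20. In MSR1 KO replicate 1 was highest for 8 genes, beside 31.2% of all tested genes, and the exceptions were Rtp4 (replicate 2) and Ifi35 (replicate 3). These counts were the same under all 3 scalings tried.

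The MSR1 WT libraries also varied more. The SD of log2 CPM was larger in WT than in KO for 10 of 10 genes, compared to 45.6% of all tested genes. Its median over the 10 genes was 0.42 in WT and 0.13 in KO, against 0.16 and 0.18 over all tested genes. The 44 other interferon-stimulated effectors had medians of 0.37 in WT and 0.17 in KO, and MSR1 WT replicate 3 was the highest WT library for 43 of them. MSR1 WT replicate 3 was also the highest WT library for 4 of 5 tested markers of plasmacytoid dendritic cells, 4 of 5 of T and NK cells, 7 of 12 of macrophages, 4 of 7 of monocytes, 2 of 12 of stromal cells and 0 of 8 of neutrophils. What made this library differ was not tested.

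**Figure D3:**
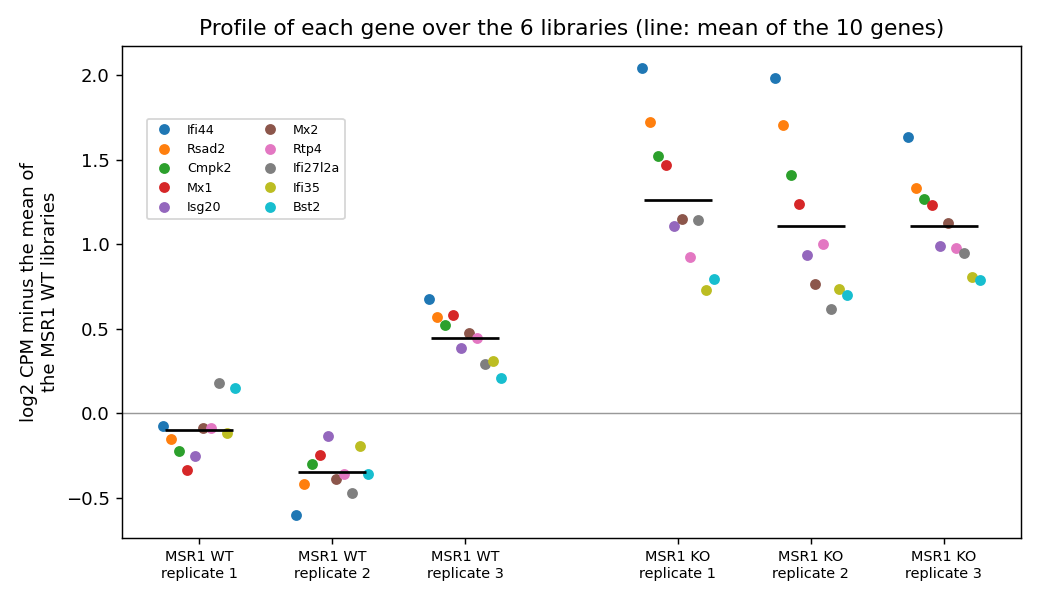
Log2 CPM of each gene in each library minus its mean over the 3 MSR1 WT libraries, with the mean of the 10 genes as a line. All 10 genes lie above 0 in MSR1 WT replicate 3, where the mean is 0.45, and the mean profile is -0.10 and -0.35 in MSR1 WT replicates 1 and 2 and 1.26, 1.11 and 1.11 in MSR1 KO replicates 1, 2 and 3.

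The genes whose profile over the 6 libraries was most like the mean profile of the 10 were Treml2, Xaf1, Fcgr1, Ifi204, Klri2, H2-T22, Ifit1, Gpr171, C2 and Ifi211. Likeness was measured as the root mean square difference in log2 CPM, after subtracting each gene's WT mean. It was 0.06 for Treml2, 0.07 for Xaf1, 0.09 for the high-affinity IgG receptor Fcgr1 and 0.10 for Ifi204. Among the 10 themselves it ran from 0.15 for Mx2, Isg20 and Rtp4 and 0.16 for Mx1 to 0.54 for Ifi44. By this measure Ifi44 stood furthest from the mean profile. The measure was not scaled to the size of the fold change, which was largest for Ifi44.

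The other genes of the pathway were followed in lists written by hand, with interferon genes already known to be high in this table, so their counts are no independent evidence of direction. Among 26 tested genes of interferon signalling, 7 rose and 0 fell (edgeR's quasi-likelihood test; 13 higher and 1 lower at an unadjusted p under 0.05, and 13 and 0 by DESeq2), with a median log2 fold change of 0.23. The transcription factor Stat2 rose (1.27, adjusted p = 0.0193), as did Irf9 (0.48, adjusted p = 0.0353), which binds Stat2, lay outside the naming rule and was named after its values were seen. The amplifier Irf7 (1.35, adjusted p = 0.0253), the feedback inhibitor Socs1 (1.36, adjusted p = 0.0449), Irf5 (0.60, adjusted p = 0.0237) and Irf2 (0.50, adjusted p = 0.0318) rose too. The abundant receptor chains Ifngr1 (0.17, adjusted p = 0.379) and Il10rb (0.005, adjusted p = 0.981) and the phosphatase Ptpn6 (0.37, adjusted p = 0.0525) did not pass. The list held no ligand other than Ifnb1 and Ifng, and these were barely counted. Ifnb1 had 8, 6 and 0 counts in MSR1 KO and 0, 0 and 4 in MSR1 WT replicates 1, 2 and 3. Ifng had 4 counts in 1 MSR1 WT library and 0 in the others. A count of 0 allows up to 3 counts, and neither ligand, named after its values were seen, was tested. Without MSR1 KO replicate 1, 2 or 3 the list held 0, 2 and 5 higher genes, and without MSR1 WT replicate 1, 2 or 3 it held 0, 1 and 7.

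Among 16 genes of virus sensing, 7 rose and 0 fell (8 and 0 at an unadjusted p under 0.05, 7 and 0 by DESeq2), with a median log2 fold change of 0.44. The sensors Zbp1 (1.63), Dhx58 (0.92), Tlr9 (0.78), Ifih1 (0.71) and Ddx58 (0.68) and the adaptors Tmem173 (0.52) and Myd88 (0.45) rose, with adjusted p from 0.0235 to 0.0378. Among the abundant genes Tlr7 (-0.20, adjusted p = 0.857), Ikbke (0.10, adjusted p = 0.518) and Trim25 (0.47, adjusted p = 0.380) did not pass. No gene of this list passed without MSR1 KO replicate 1 or 2 or without MSR1 WT replicate 1 or 2, 2 passed without MSR1 KO replicate 3, and 7 without MSR1 WT replicate 3.

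Of 44 other interferon-stimulated effectors 36 rose and 0 fell (43 and 0 at an unadjusted p under 0.05, 42 and 0 by DESeq2), with a median log2 fold change of 1.05, close to the 0.99 of the 10 antiviral genes. The guanylate-binding proteins Gbp2 (3.04), Gbp3 (2.16) and Gbp5 (2.14), the immunity-related GTPases Iigp1 (2.37) and Tgtp1 (2.00) and Ifit1bl1 (2.08) rose most, with adjusted p from 0.0225 to 0.0386. The abundant Ifit3 (1.54), Ifi204 (1.00) and Ifitm3 (0.75) rose, whereas Ifitm2 had a value of -0.19 (adjusted p = 0.755). Libraries were ordered differently in MSR1 KO: replicate 2 was highest for 26 of the 44 and replicate 1 for 12, compared to 1 and 8 of the 10. Gbp2 ranged from 3141 to 23814 counts over the KO libraries, with a mean of 309 ± 269 CPM (SD, n = 3). Rsad2 had a mean of 227 ± 33.4 CPM in these libraries. Leaving out MSR1 KO replicate 1, 2 or 3 left 3, 6 and 19 higher genes, and leaving out MSR1 WT replicate 1, 2 or 3 left 2, 3 and 38.

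**Figure D4:**
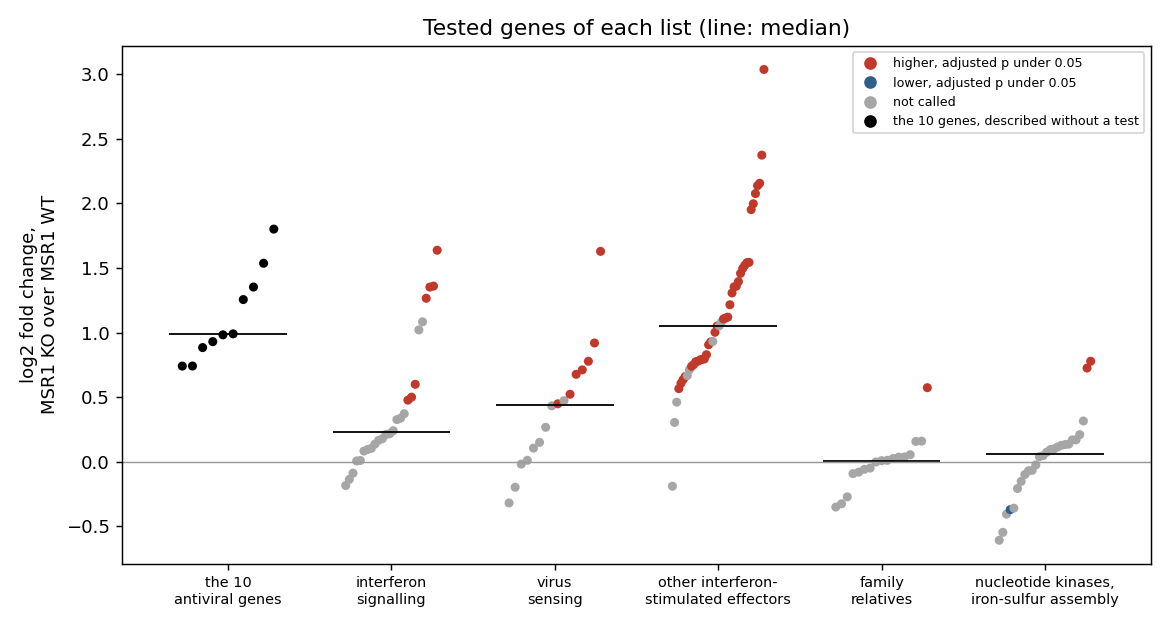
Log2 fold change of MSR1 KO over MSR1 WT for the 10 antiviral genes and the tested genes of each list, sorted within a list, with the median as a line and calls at an adjusted p under 0.05 in red (higher) or blue (lower). The medians are 0.99 for the 10 genes, 1.05 for the other effectors, 0.44 and 0.23 for sensing and signalling, and 0.01 and 0.06 for the relatives and the nucleotide and iron-sulfur genes.

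Relatives and partners of the 10 proteins, a few of them interferon-induced themselves, were looked at in a list of 22 genes, 17 of which were tested. Nmi, the partner of Ifi35, was the 1 gene that rose (0.57, adjusted p = 0.0327), and 0 fell (1 and 0 at an unadjusted p under 0.05, 1 and 0 by DESeq2); without MSR1 KO replicate 1 it stayed at 1, and without any other single library 0 passed. The median log2 fold change was 0.01. The dynamins Dnm2 (0.02, adjusted p = 0.889) and Dnm1l (0.04, adjusted p = 0.864), GTPases of the same superfamily as Mx1, did not pass. Cmpk1, the cytosolic counterpart of Cmpk2, stood at 0.16 (adjusted p = 0.307). Ifi27, which lies 1927 bp from Ifi27l2a, had 925, 871 and 1523 counts in MSR1 KO and 1231, 1910 and 1343 in MSR1 WT replicates 1, 2 and 3. The groups overlapped and the log2 fold change was -0.35 (adjusted p = 0.308), opposite in sign to the 0.88 of Ifi27l2a. Ifi44l, Rtp1, Rtp2 and Rtp3 had 0 counts in all 6 libraries.

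Genes of nucleotide metabolism and of iron-sulfur cluster assembly, 2 processes related to the enzymes Cmpk2 and viperin, formed a list of 26 tested genes with a median log2 fold change of 0.06. Dck, which salvages deoxynucleosides, rose (0.73, adjusted p = 0.0267), as did Samhd1, a dNTP hydrolase that is also in the effector list (0.78, adjusted p = 0.0354). Ctps, which makes CTP from UTP, fell by 0.37 on the log2 scale (adjusted p = 0.0483). The abundant Nme2 (0.05), Fam96a (0.04) and Hscb (0.17) did not pass, with adjusted p from 0.542 to 0.840. Without MSR1 KO replicate 1, 2 or 3 the list held 0, 0 and 1 higher and no lower genes, and without MSR1 WT replicate 1, 2 or 3 it held 0, 0 and 2 higher and 0, 0 and 2 lower.

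The nearest tested genes on either side of the 10, leaving out genes of the list of effectors, were 17 genes chosen by position. None rose and 1 fell (edgeR's quasi-likelihood test; 2 higher, Mvb12a and Bcl6, and 2 lower, Mfge8 and Prdm15, at an unadjusted p under 0.05, 0 and 1 by DESeq2), and their median log2 fold change was 0.13. Of all 16402 tested genes, 1419 were higher and 1677 lower at an unadjusted p under 0.05. The neighbour that fell was Mfge8, a bridge between dying cells and phagocytes, 213371 bp from Isg20. It had 2192, 2544 and 2013 counts in MSR1 KO and 6955, 5754 and 8791 counts in MSR1 WT replicates 1, 2 and 3, and a log2 difference of -1.58 ± 0.22 (SE; adjusted p = 0.0139). This call was lost without MSR1 KO replicate 1 and without MSR1 WT replicate 1, each of which left 0 lower neighbours, and leaving out any other library, MSR1 WT replicate 3 included, left 1. Aen, 2214 bp from Isg20, stood at -0.003 on the log2 scale (adjusted p = 0.998), and Mvb12a, 5465 bp from Bst2, at 0.19 (adjusted p = 0.241). Rnf144a and Sox11, which flank the Rsad2 and Cmpk2 pair, had values of 0.44 (adjusted p = 0.318) and -0.54 (adjusted p = 0.286). Of the neighbours not called, Prdm15 beside Mx2 came closest (-0.35, adjusted p = 0.113).

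**Figure D5:**
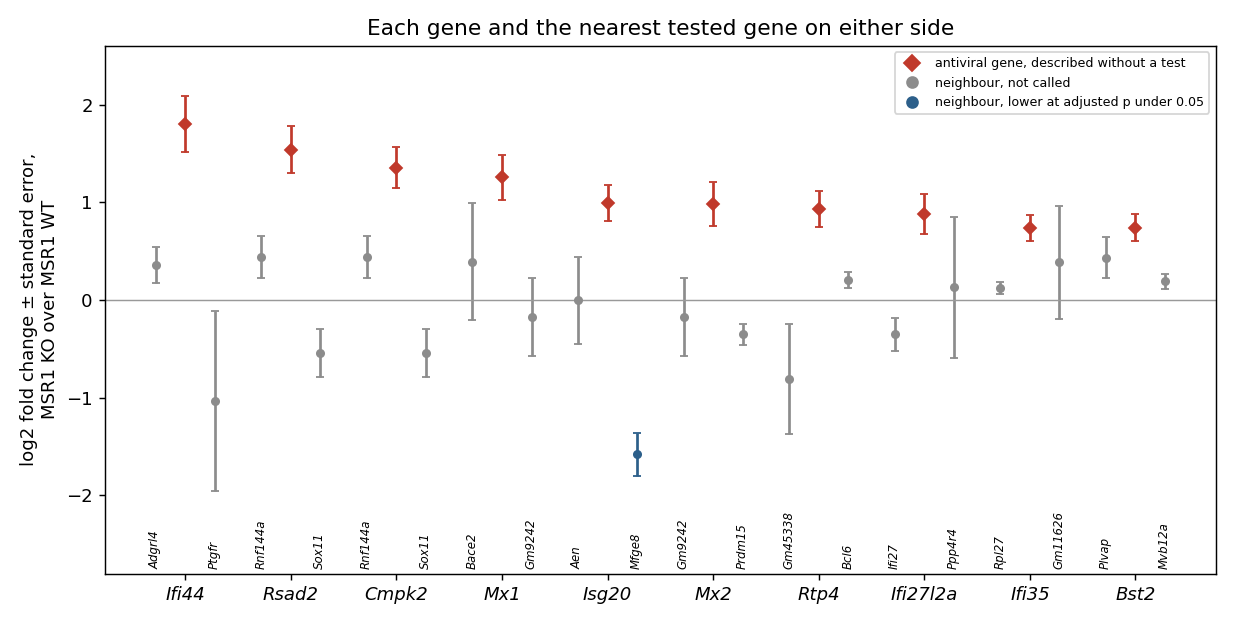
Log2 fold change of MSR1 KO over MSR1 WT with 1 standard error for each of the 10 genes (red) and the nearest tested gene before and after it on the chromosome (grey or blue, named along the bottom). The neighbours lie on both sides of 0, from -1.58 for Mfge8 to 0.44 for Rnf144a, and Rnf144a, Sox11 and Gm9242 appear beside 2 genes each.

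Markers of other cells were read beside these differences. Of 12 macrophage markers, Fcgr1 rose (log2 fold change 1.14, adjusted p = 0.0182), while the most abundant, Lyz2 (-0.15, adjusted p = 0.361), C1qb (0.28, adjusted p = 0.102) and C1qa (0.38, adjusted p = 0.0698), did not pass. At an unadjusted p under 0.05 the macrophage list held 6 genes higher and 1 lower, and by DESeq2 4 and 0. Among the monocyte markers Plac8 (1.89) and Ly6c2 (1.40) rose and F13a1 (-1.29) fell, with adjusted p from 0.00261 to 0.0204, and the list summed to 568 to 763 CPM in MSR1 KO and 721 to 808 CPM in MSR1 WT libraries. Stromal markers summed to 1197 to 1580.0 CPM in MSR1 KO and 1571 to 1965 CPM in MSR1 WT libraries, and 3 of 12 (Pdgfra, Pdgfrb and Cxcl12) fell. At an unadjusted p under 0.05 the stromal list held 2 genes higher and 5 lower, and by DESeq2 also 2 and 5. Thy1 of this list (log2 fold change 1.31, adjusted p = 0.0907) had 224, 239 and 328 counts in MSR1 KO. It had 84, 69 and 179 counts in MSR1 WT replicates 1, 2 and 3. The neutrophil list ran from 485 to 810.4 CPM in MSR1 KO and 328 to 635 CPM in MSR1 WT, with 0 of 8 called (2 higher, Retnlg and Mpo, and 0 lower at an unadjusted p under 0.05, 1 and 0 by DESeq2). T and NK cell markers summed to 106 to 152 and 94.6 to 149 CPM, with Klrb1c higher, and B and plasma cell markers to 41.1 to 44.3 and 60.8 to 73.8 CPM, with Sdc1 lower. The most abundant stromal markers Col1a1 (-0.26, adjusted p = 0.373), Col1a2 (-0.39, adjusted p = 0.111) and Eng (0.47, adjusted p = 0.119) did not pass, nor did S100a9, Ngp and S100a8 of neutrophils (adjusted p from 0.413 to 0.697), Chil3 and Ccr2 of monocytes (0.746 and 0.320), Clec10a, Tcf4 and Cox6a2 of plasmacytoid dendritic cells (0.590 to 0.855), Cd79b of B cells (0.327) or Cd4 and Ncr1 of T and NK cells (0.960 and 0.392). Erythroid markers stayed at or under 0.41 CPM, and Hbb-bs and Hbb-bt were at 0. The part of these cells in the difference of the 10 genes was not tested.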

How the data were processed

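The authors made mRNA libraries, sequenced them and deposited 1 table of raw counts per gene and library, with counts divided by a size factor (signal), log2 fold changes and p-values beside them; only the raw counts were used here. Per the labels, fastp 0.17.1, HISAT2 2.1.0, DESeq2 1.18.1 and R 3.4.3 were used, whereas the paper names another aligner and FPKM; the counting program and its strand setting are not given in the sources used here. The table has 52550 genes, 52403 of whose identifiers are in GENCODE M21 (GRCm38), 49909 at the same position. All 37 mitochondrial genes were at 0. Symbols were taken as written, with 27 shaped like dates and 89 shared by several identifiers.

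The 3 MSR1 KO and 3 MSR1 WT libraries were compared by edgeR's quasi-likelihood test (version 4.0.16, R 4.3.3), on counts that passed filterByExpr and with TMM scaling, with Benjamini-Hochberg adjustment over 16402 genes and a threshold of 0.05. Standard errors were derived from the F statistic. Log2 CPM for profiles used a prior count of 2. On simulated data with 200 genes changed 2-fold among 16053 tested, 128 were recovered (64%) with 17 other calls. Alternatives were DESeq2 1.42.0, other scalings and filters, a replicate block and leaving out each library. The members and lists were chosen with earlier results of these data known. Named genes were all 10 members, up to 6 called genes of largest change and the 4 most abundant of each pathway list, the 3 most abundant of each marker list, the nearest neighbours and the 10 most similar profiles. Called marker genes, Ccr9, Siglech, Thy1, Irf9, Myd88, Ifnb1, Ifng and relatives at 0 were named after their values were seen. Intervals from replicates include technical spread, and a count of 0 covers counting error only. Some genes of the lists count in the totals and are not reported here by name.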

Additional observations from a re-analysis of the deposited data

How the results depend on the processing

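Each of the 10 antiviral genes was higher in MSR1 KO in every setting tried, with log2 fold changes between 0.58 (Bst2) and 2.21 (Ifi44). Calls at an adjusted p under 0.05 depended far more on the setting. DESeq2's test called 720 genes higher and 848 lower, and 13 genes of interferon signalling higher. Testing genes without the filter called 237 higher and 288 lower, with 8 of the 10 antiviral genes, 0 relatives and 1 nucleotide or iron-sulfur gene higher and 0 of the latter lower. The lower count of that last list was 4 by DESeq2, 2 by library size alone and 2 with at least 10 counts in every library. Library size alone called 9 of the 10 antiviral genes.

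Same-numbered libraries did not deviate together (correlations -0.03, 0.02 and -0.005). These correlations cannot exclude a pairing that touches only some genes. What the replicate numbers stand for was not tested. With the replicate block the counts were 59 higher and 78 lower over all genes, 1 of the 10 antiviral genes, 1 gene of signalling, 0 of sensing, 8 other effectors, 0 relatives, 0 higher and 0 lower nucleotide or iron-sulfur genes and 0 lower neighbours.

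Over single left-out libraries the ranges were 18 to 407 higher and 53 to 372 lower genes, 0 to 10 of the antiviral genes, 0 to 7 of signalling, 0 to 7 of sensing, 2 to 38 other effectors, 0 to 1 relatives, 0 to 2 higher and 0 to 2 lower nucleotide or iron-sulfur genes and 0 to 1 lower neighbours. The median log2 fold change of the 10 genes ran from 0.86 to 1.23. The ligands Ifnb1 and Ifng had too few counts to be tested, and whether depth or low expression limited them was not tested. The cause of the shifts with the block and with DESeq2 was not tested.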
